A study of Mus musculus with 6 samples.

Results

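The Ets family genes Ets1, Ets2, Fli1, Erg, Elf1, Elf2, Elf4, Etv5, Etv6 and Gabpa were examined for trimethylation of histone H3 at lysine 4 (H3K4me3) in a mouse T-cell progenitor line and a mouse B-cell progenitor line. These 10 genes, of 21951 protein-coding genes annotated, were chosen by name and not by a measured value. Earlier results of these data were known when they were chosen. A gene was called marked in a line when an H3K4me3 peak lay within 2500 bp of any of its transcription start sites (TSSs), and peaks elsewhere over the gene were called gene body peaks. Scid.adh.2C2, the T-lineage line, was subcloned from tumour cells of the thymus of a CB17-Prkdc<scid> mouse and is described as similar to DN3 thymocytes. The B-lineage line, named here the pre-B line, is a mouse B-cell progenitor line transformed with Abelson virus. Each of them is a single line, and Scid.adh.2C2 a single subclone. No treatment was named for either line, and each was assayed with 2 H3K4me3 ChIP-seq libraries and 1 input library, 6 samples in all. The authors combined the replicates of a line into 1 peak list, so each value below is a single value per line with no spread between replicates and no test, and a difference between the lists may be one between the 2 lines or between their libraries.

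Ets proteins are transcription factors that bind DNA through a conserved winged helix-turn-helix domain, and most of them recognise sequences built around GGAA. Several of them act in blood cells, where they share binding sites and often work beside Runx and other lineage factors. Their genes include paralogs that lie next to each other, Ets1 beside Fli1 and Ets2 beside Erg. H3K4me3 is found at the start sites of active or poised genes, often over DNA rich in CpG dinucleotides, and a gene with several start sites can carry it at one and not at another.

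Start sites of 4 members that differed in marking and in the number of CpGs are shown. The sequences come from the 250 bases before the RefSeq start on the gene's strand in GRCm38.p6, 5′ to 3′, with CpG dinucleotides in capitals. Of these bases, the longest stretch free of annotated exons is printed. The first pair belongs to Elf4, which had a peak over the inner start (chrX:48454320-48454569, minus strand, 23 CpGs) in both lines and a peak over the upstream start (chrX:48463133-48463382, minus strand, 11 CpGs) in the pre-B line only. The inner start of Elf1 (chr14:79515424-79515673, plus strand) carried broad peaks in both lines and has 2 CpGs. The upstream RefSeq start of Etv5 lay under a peak in the pre-B line only. Printed for it are 101 bases further upstream (chr16:22439720-22439820, minus strand, 7 CpGs). These bases lay between neighbouring pre-B peaks and under no peak of either line. The upstream start of Erg (chr16:95586594-95586843, minus strand, 14 CpGs) had no peak in either line.
Elf4 inner start: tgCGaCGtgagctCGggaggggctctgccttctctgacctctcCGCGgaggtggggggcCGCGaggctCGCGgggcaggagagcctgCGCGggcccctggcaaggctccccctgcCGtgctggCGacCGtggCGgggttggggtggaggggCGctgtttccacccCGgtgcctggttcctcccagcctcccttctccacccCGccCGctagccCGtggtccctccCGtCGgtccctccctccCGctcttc
Elf4 upstream start: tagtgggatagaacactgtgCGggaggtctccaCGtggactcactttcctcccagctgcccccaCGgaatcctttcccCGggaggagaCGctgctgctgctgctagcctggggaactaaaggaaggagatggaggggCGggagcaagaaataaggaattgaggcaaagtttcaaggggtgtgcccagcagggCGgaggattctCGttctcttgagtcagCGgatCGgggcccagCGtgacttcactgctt
Elf1 inner start: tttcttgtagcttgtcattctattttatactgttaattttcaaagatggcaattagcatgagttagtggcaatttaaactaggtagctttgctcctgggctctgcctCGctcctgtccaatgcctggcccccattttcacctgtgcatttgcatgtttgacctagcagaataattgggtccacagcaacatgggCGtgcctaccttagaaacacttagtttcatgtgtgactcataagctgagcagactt
Etv5 upstream start: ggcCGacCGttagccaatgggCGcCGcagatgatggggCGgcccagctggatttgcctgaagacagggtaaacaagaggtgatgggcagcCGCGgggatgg
Erg upstream start: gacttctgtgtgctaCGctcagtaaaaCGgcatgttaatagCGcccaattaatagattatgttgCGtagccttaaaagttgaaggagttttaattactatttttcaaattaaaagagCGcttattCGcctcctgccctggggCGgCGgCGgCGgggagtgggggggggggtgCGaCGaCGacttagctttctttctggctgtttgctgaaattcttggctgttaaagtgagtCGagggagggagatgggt

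In Scid.adh.2C2, 8 of the 10 genes were marked, beside 45.5% of all protein-coding genes. In the pre-B line, 8 of 10 were marked too, beside 48.2% of all genes. The same 7 genes were marked in both lines, beside 42.2% of all genes: Ets2, Fli1, Elf1, Elf2, Elf4, Etv6 and Gabpa. The remaining members comprised 2 marked in 1 line only, beside 9.24% of all genes, and 1 marked in none. Ets1 was marked in Scid.adh.2C2 only, as were 3.28% of all genes, and Etv5 in the pre-B line only, as were 5.96%. Erg was marked in neither line, as were 48.6% of all genes. The members had more start sites than most genes, with a median of 5 annotated TSSs against 3, and each of them had at least 2. Among all genes with 2 or more TSSs, 52.9% were marked in Scid.adh.2C2 against 55.8% in the pre-B line.

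The lines carried the promoter marks of their labelled lineages. Of 8 T-cell progenitor markers, 8 were marked in Scid.adh.2C2 and 2, Cd3d and Tcf7, in the pre-B line. Of 8 B-cell progenitor markers, 8 were marked in the pre-B line and 1, Vpreb1, in Scid.adh.2C2, and none of 5 myeloid markers was marked in either line. The Scid.adh.2C2 list held 15513 peaks with a median fold enrichment over background of 20.3, and the pre-B list 19604 peaks with a median of 15.4. Folds of these separately made lists are not on 1 scale, so a gene's highest promoter peak is also given as its percentile among the marked genes of the same list.

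**Figure D1:**
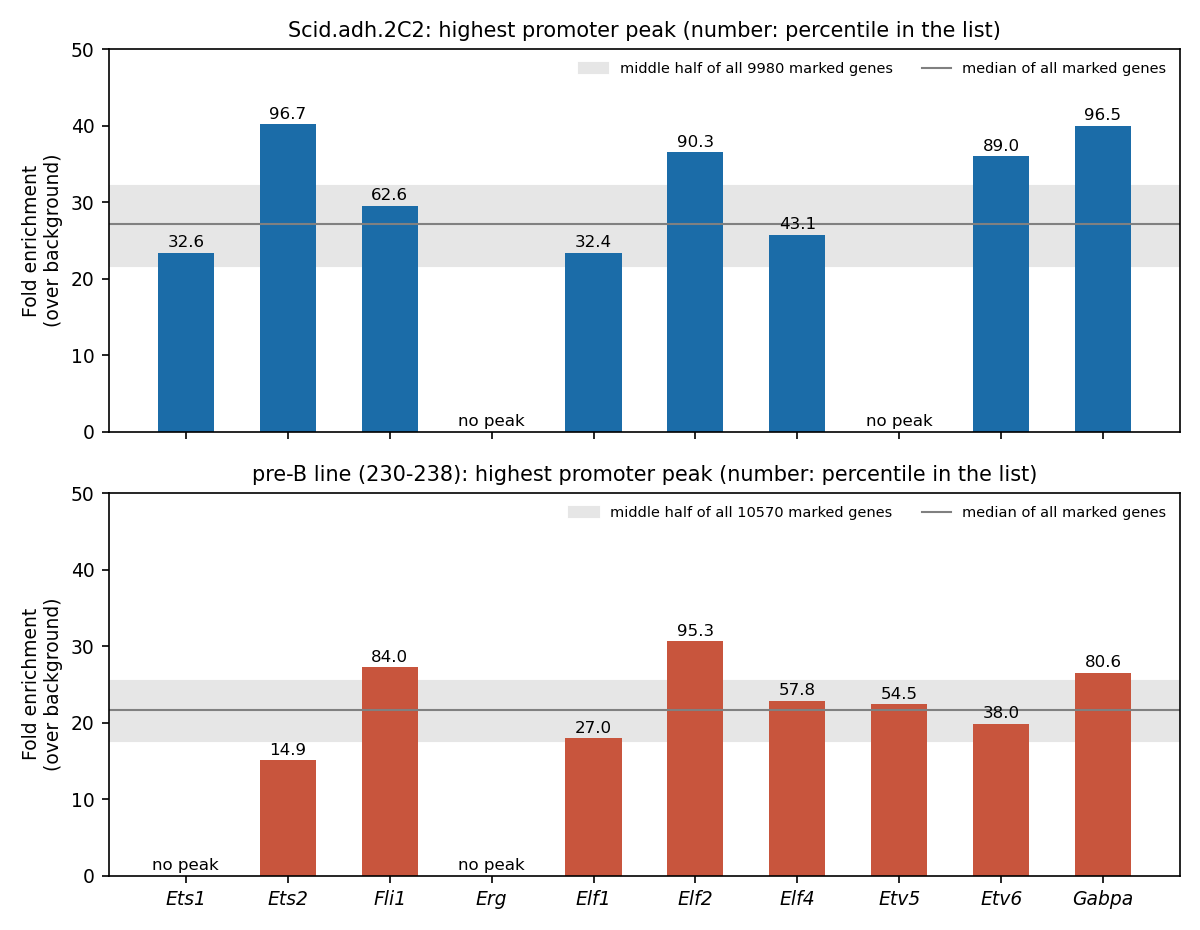
Fold enrichment over background of the highest promoter peak of each member (bars) in Scid.adh.2C2 (top) and the pre-B line (bottom), with its percentile among marked genes printed above it. The grey band is the interquartile range and the line the median over all marked genes. Ets2 stands at percentile 96.7 in the top panel and 14.9 in the bottom panel, and Erg has no peak in either.

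Ets1, the founding member of the family, is needed for the maturation of T cells past the pre-TCR stage and restrains plasma cell differentiation in B cells. It lies on chromosome 9 (32636221 to 32757820, plus strand, 121.6 kb). In Scid.adh.2C2 a peak of 3119 bp and 23.4-fold enrichment, at percentile 32.6 of marked genes, covered all 4 TSSs of the inner start-site group, the only one with protein-coding transcripts, 59.8 kb from the most upstream TSS. Its summit lay just upstream of the nearest of them. No peak of the pre-B line lay within 2500 bp of any of the 6 TSSs. The mark was therefore present at the Ets1 coding starts in the T-lineage list alone, and the upstream group, which has non-coding transcripts only, was marked in neither list.

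Ets1 was not free of H3K4me3 in the pre-B line. Its body held 5 peaks there, with folds of 8.15, 13.1, 11.9, 8.25 and 12.7, all with summits in introns, the nearest lying 12571 bp from a TSS. The 11.9-fold peak also lay in the promoter window of Gm27240, an antisense gene. In Scid.adh.2C2 its body held 2 intronic peaks of 19.7-fold and 8.36-fold. None of the Ets1 peaks of one list overlapped one of the other, whether at the promoter or in the body. Over all members, Ets1 included, 12 of 22 body peaks in Scid.adh.2C2 and 10 of 19 in the pre-B line overlapped. No such share over all genes is given here. Of 5007 protein-coding genes of at least 50 kb, 85 had 5 or more body peaks in the pre-B line, and 13 of these 85 (15.3%) lacked a promoter peak as Ets1 did. This last count was chosen after the Ets1 values were seen.

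Ets2, the closest relative of Ets1 and a target of Ras and MAP kinase signalling, lies on chromosome 16 (95702075 to 95721051, plus strand). It had 1 peak in each list, at the same first group of 3 TSSs and with its summit 60 bp (Scid.adh.2C2) or 66 bp (the pre-B line) downstream of the nearest TSS. The peak was 2082 bp long with 40.2-fold enrichment in Scid.adh.2C2 and 1529 bp long with 15.1-fold enrichment in the pre-B line. Its percentile was 96.7 in the first list and 14.9 in the second. This difference of 81.7 points was higher than that of 99.6% of the 9261 genes marked in both lines. The length differed less, at 1.36 times longer in Scid.adh.2C2. The other 3 start-site groups of Ets2 had no peak in either list.

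Fli1, which was found as a Friend leukaemia virus integration site and acts in stem cells, megakaryocytes and lymphocytes, lies on chromosome 9 (32422204 to 32542861, minus strand). It has 2 TSSs, 1.27 kb apart. The inner TSS lay under a peak of nearly the same extent in both lists, of 3932 bp and 29.6-fold in Scid.adh.2C2 against 3929 bp and 27.2-fold in the pre-B line. The upstream TSS lay under a separate peak of 2597 bp and 23.6-fold in the pre-B line and under no peak in Scid.adh.2C2. With this second peak, 5570 bp of the promoter windows were covered in the pre-B line against 2961 bp in Scid.adh.2C2, 1.88 times as many. Taken by the width of the highest peak alone, the lists differed by a log2 ratio (Scid.adh.2C2 over the pre-B line) of 0.0011. The percentile of the highest peak was 84.0 in the pre-B line and 62.6 in Scid.adh.2C2. In both lists the peak over the inner TSS also lay in the promoter window of Gm37082, a gene of the annotation class TEC.

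With peaks counted as called, the Fli1 body held the most H3K4me3 peaks of the members. There were 13 body peaks in Scid.adh.2C2 with folds from 4.92 to 14.8, a number that only 6 of the 5007 long genes (0.12%) reached, Fli1 included. There were 6 in the pre-B line with folds from 6.69 to 15.6, reached by 46 long genes (0.919%). All 19 had their summits in introns. Many of the 13 lay close together, such as a peak ending at 32507234 and the next starting at 32507313. The lead of Fli1 and the shares of long genes were taken with peaks unmerged, and both depend on how peaks were split. Merging peaks within 1000 bp left 13 body peaks over all members in Scid.adh.2C2 in place of 22, and 12 in the pre-B line in place of 19. No merged count is given per gene, but the 5 body peaks of Ets1 in the pre-B line all lay farther apart than this. The number of peaks did not give the amount of marked DNA. With promoter peaks over the gene included, 15.4 kb of it (12.8%) lay under Scid.adh.2C2 peaks and 15.7 kb (13.0%) under those of the pre-B line. Of the body peaks, 7 of 13 and 4 of 6 overlapped a peak of the other list, with no such share over all genes given here. In promoter windows of other genes annotated over Fli1, the antisense gene Gm27201 and the TEC genes Gm38346 and Gm37082, lay 6 of the 13 and 2 of the 6. Peaks carry no strand, so those of overlapping genes cannot be told apart.

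Erg, the paralog of Fli1, is needed to maintain haematopoietic stem cells and is an oncogene of T-cell leukaemia. It lies on chromosome 16 (95359169 to 95586593, minus strand, 227 kb). Neither list held a peak within 2500 bp of its 6 TSSs or anywhere over its body. In both lists the summit nearest to its most upstream TSS was that of the Ets2 promoter peak.

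The paralog pairs thus differed in how the mark was spread. Fli1 and Ets1 start 93.4 kb apart on opposite strands, and the interval between them held 3 peaks outside their promoter windows in Scid.adh.2C2 (5.71-fold to 10.8-fold) and 4 in the pre-B line (5.25-fold to 8.60-fold). Of these, 1 peak of each list overlapped the other, with no such share over other intervals given here. Erg and Ets2 start 115 kb apart, also on opposite strands, and the interval held no peak outside the Ets2 promoter in either list.

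**Figure D2:**
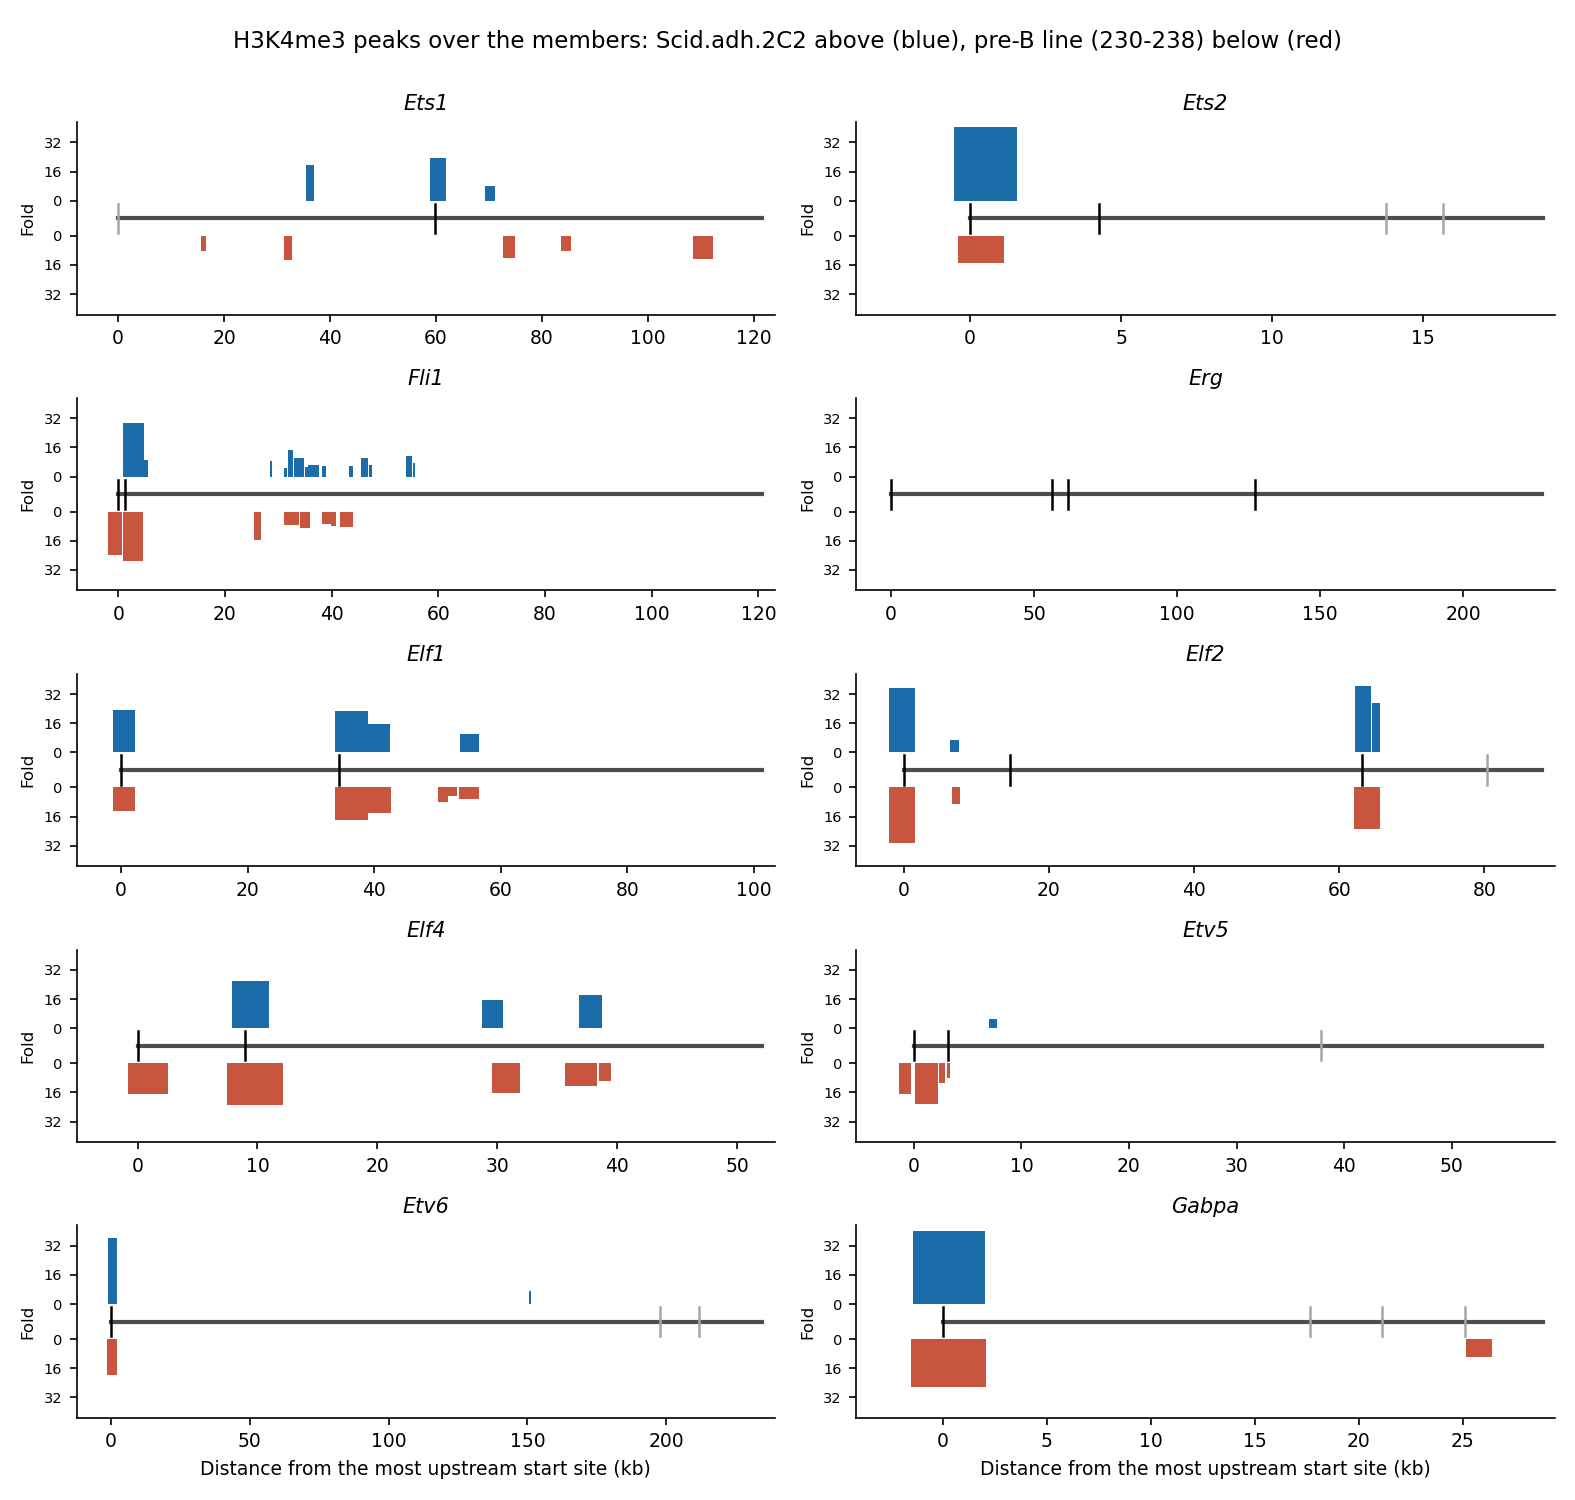
H3K4me3 peaks over each member by distance from its most upstream TSS in kb (x axis, in the direction of transcription, scaled per gene), with height giving the fold enrichment, for Scid.adh.2C2 above the line (blue) and the pre-B line below it (red). Ticks mark start-site groups, grey where no transcript codes for protein. Fli1 shows 13 blue and 6 red body peaks, Ets1 shows blue and red peaks that do not overlap, and Erg shows none.

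Elf1, Elf2 and Elf4 form a subfamily that acts in lymphoid cells. Elf1 regulates T-cell genes, Elf2 has activating and repressing isoforms, and Elf4 restrains the proliferation of CD8+ T cells and is needed for natural killer cells. All 3 were marked at more than 1 place in at least 1 line. Elf1 and Elf2 kept nearly the same marked length in both lists, and Elf4 did not. By the width of the highest peak alone, the log2 ratio (Scid.adh.2C2 over the pre-B line) was -0.62 for Elf1 and -0.68 for Elf2. For both genes the highest peak lay at a different start in each list, so these ratios compare unlike starts. At the first start of Elf2 the peak was 3570 bp long in Scid.adh.2C2 and 3613 bp long in the pre-B line.

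Elf1 lies on chromosome 14 (79481194 to 79582494, plus strand) and had a peak at each of its 2 start-site groups, 34.5 kb apart, in both lists. The first peak was 3367 bp long in Scid.adh.2C2 against 3423 bp in the pre-B line, and it also lay in the promoter window of Wbp4. The inner peak was 5176 bp and 5168 bp long, longer than 99.3% and 98.1% of the peaks of the respective list. At the first start the fold was 23.4 in Scid.adh.2C2 against 12.9 in the pre-B line, at percentiles 59.2 and 40.0 among all peaks of their lists. At the inner start it was 22.6 and 18.0, at percentiles 56.5 and 59.9. The highest peak of Elf1 was therefore at the first start in Scid.adh.2C2 and at the inner start in the pre-B line. In both lists a further peak, 15.8-fold and 14.1-fold, began close to the end of the inner one.

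Elf2 lies on chromosome 3 (51252720 to 51340663, minus strand) and has 13 TSSs in 4 groups. The first group and the group 63.1 kb downstream were marked in both lists, while the coding group at 14.6 kb and the non-coding group at 80.4 kb were not. The first peak had 35.3-fold enrichment in Scid.adh.2C2 against 30.6-fold in the pre-B line, at percentiles 93.1 and 97.9 among all peaks of their lists. The inner peak had 36.5-fold and 22.9-fold, at percentiles 94.9 and 79.9. In Scid.adh.2C2 a neighbouring peak of 1100 bp and 27.3-fold stood 1245 bp from the nearest TSS, and the single pre-B peak of 3626 bp spanned both. All 3 also lay in the promoter window of 4930577N17Rik, a TEC gene. The marked length was 6925 bp in Scid.adh.2C2 against 7239 bp in the pre-B line, at percentiles 99.6 and 99.0 of marked genes.

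Elf4 lies on chromosome X (48411046 to 48463132, minus strand) and has 2 TSSs, 8.96 kb apart, whose upstream sequences are printed above. The inner TSS lay under a peak of 3079 bp and 25.8-fold in Scid.adh.2C2 and under one of 4744 bp and 22.9-fold in the pre-B line. The longer of these contained the shorter. The upstream TSS lay under a peak of 3335 bp and 17.0-fold in the pre-B line and under none in Scid.adh.2C2, where the nearest summit was 8369 bp away. The marked length was thus 7323 bp in the pre-B line and 3079 bp in Scid.adh.2C2, a ratio of 2.38. Peaks covered 25.4% of the gene in the pre-B line and 13.0% in Scid.adh.2C2.

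Etv5, a member of the PEA3 group that acts downstream of fibroblast growth factor signalling and maintains spermatogonial stem cells, lies on chromosome 16 (22381309 to 22439719, minus strand). In the pre-B line it had 4 promoter peaks, of 17.0-fold, 22.4-fold, 10.6-fold and 7.93-fold in the direction of transcription, which spanned 4721 bp in all. They covered 2 of its 3 start-site groups. The highest was at percentile 54.5 of marked genes. In Scid.adh.2C2 no peak lay within 2500 bp of any of its 5 TSSs, and the nearest was an intronic peak of 722 bp and 5.09-fold, 3778 bp from a TSS. Etv5 was thus marked in the B-lineage list alone at the window used here, and with 5000 bp the intronic peak was counted for it in Scid.adh.2C2 too.

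Etv6, a repressor needed by haematopoietic stem cells and a fusion partner of RUNX1 in childhood B-cell leukaemia, lies on chromosome 6 (134035700 to 134270158, plus strand). Its first start-site group carried the single promoter peak in each list, 3198 bp long in Scid.adh.2C2 against 3682 bp in the pre-B line. The fold was 36.0 in Scid.adh.2C2, at percentile 89.0, and 19.9 in the pre-B line, at percentile 38.0. The difference of 51.0 points was above that of 93.2% of the genes marked in both lines. Ranked by −log10 q in place of the fold, it was 14.0 points. The groups without a coding transcript, 198 kb and 212 kb downstream, had no peak.

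Gabpa encodes the DNA-binding subunit of GABP, which regulates genes of mitochondrial function and, in T cells, the interleukin-7 receptor gene. It lies on chromosome 16 (84834925 to 84863779, plus strand). The peak at its first start, also in the promoter window of Atp5j, was 3453 bp long with 40.0-fold enrichment in Scid.adh.2C2 and 3614 bp long with 26.5-fold in the pre-B line. The percentiles were 96.5 and 80.6. A second peak of 1236 bp and 9.86-fold lay in the pre-B line only, 45 bp from the TSS of a non-coding transcript near the end of the gene. With it the marked length was 1.40 times longer in the pre-B line.

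The TSSs of all members formed 30 groups, each of TSSs lying within 500 bp of each other. In Scid.adh.2C2 10 groups lay under a peak (33.3%), beside 21.5% of the groups of all protein-coding genes. Under pre-B peaks lay 13 (43.3%), beside 23.4%. All of these were among the 20 groups with a protein-coding transcript, of which 30.4% over all genes lay under a peak in Scid.adh.2C2 against 32.5% in the pre-B line. None of the 10 groups without one did, beside 4.9% of such groups over all genes in Scid.adh.2C2 against 6.48% in the pre-B line. Of the 20 coding groups, 5 lay under a peak in 1 line only (25.0%), beside 7.66% of all such groups: the inner start of Ets1 in Scid.adh.2C2, and the upstream starts of Fli1 and Elf4 and both coding starts of Etv5 in the pre-B line.

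**Figure D3:**
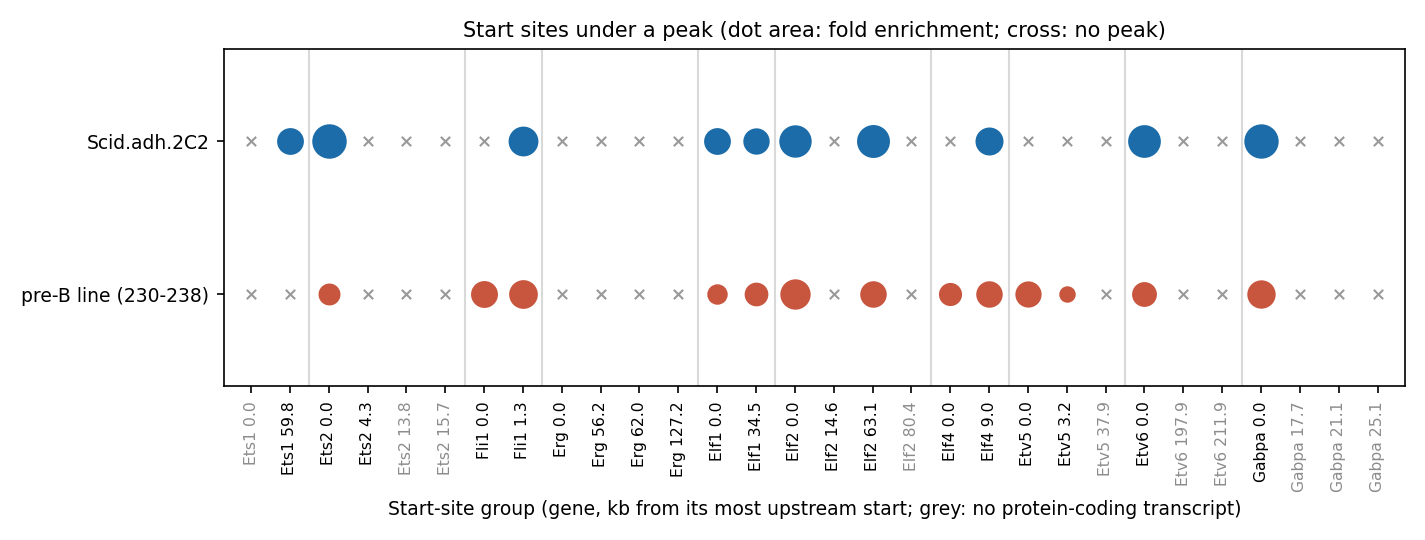
Start-site groups of the members (x axis, gene and distance in kb from its most upstream TSS, grey labels for groups without a protein-coding transcript) in each line (rows), with dot area proportional to the fold enrichment of the peak over them and a cross where there is none. Dots stand in 10 columns for Scid.adh.2C2 and 13 for the pre-B line, and no grey column has one.

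Of the 7 members marked in both lines, none had a marked length at least 1.5 times longer in Scid.adh.2C2, beside 3.05% of all genes marked in both. Fli1 and Elf4, 2 of the 7, were that much longer in the pre-B line, beside 15% of all genes. With windows of 5000 bp the longer members were Elf4 and Etv5, and the log2 ratio of Fli1 (Scid.adh.2C2 over the pre-B line) was -0.51. The median log2 ratio of marked length, Scid.adh.2C2 over the pre-B line, was -0.20 for the members and -0.16 for all 9261 genes. The members were long in both lists, with a median of 3158.5 bp in Scid.adh.2C2 against 2294 bp over all marked genes and 5210 bp in the pre-B line against 2638.5 bp. A gene with more start sites has more bases in its windows, and the part of this in the length was not tested.

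**Figure D4:**
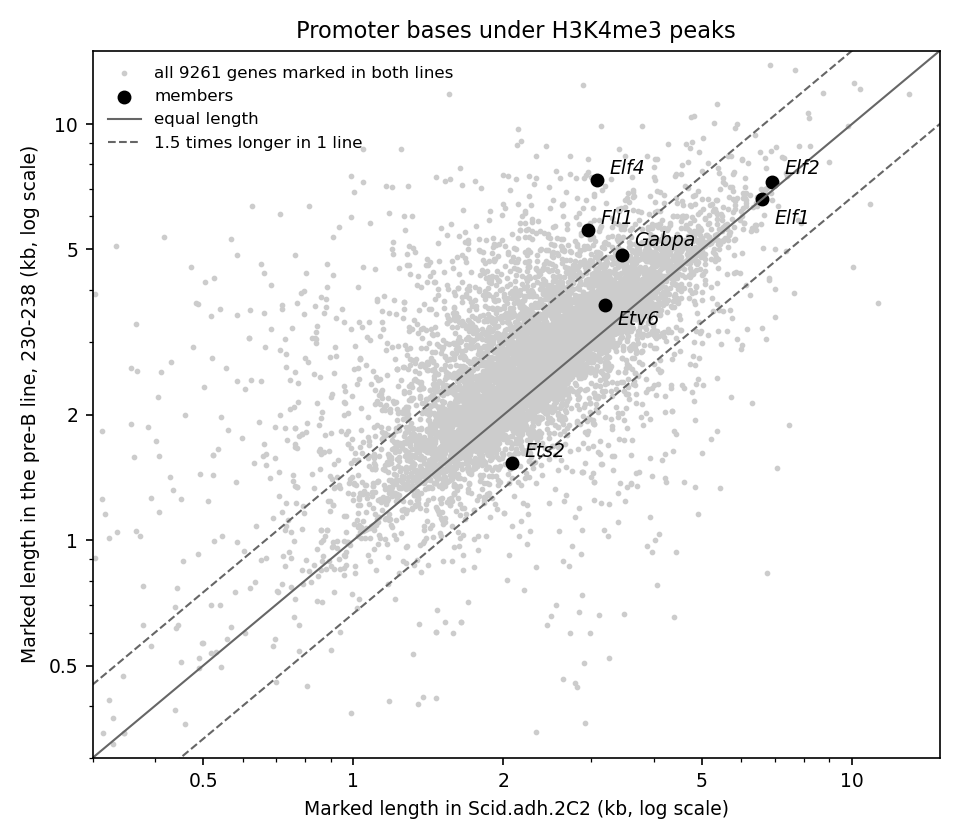
Promoter bases under H3K4me3 peaks in Scid.adh.2C2 (x axis, kb, log scale) and the pre-B line (y axis, kb, log scale) for the 7 members marked in both lines (black) and all 9261 genes marked in both (grey). Fli1 and Elf4 lie above the upper dashed line, which marks a length 1.5 times longer in the pre-B line, and Elf1 and Elf2 lie near the line of equal length.

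The percentile of the highest promoter peak was at least 10 points higher in Scid.adh.2C2 for 3 of the 7, Ets2, Etv6 and Gabpa, beside 36% of all genes marked in both. It was at least 10 points higher in the pre-B line for Fli1 and Elf4, beside 37%. Ranked by −log10 q in place of the fold, Elf4 no longer was, with a difference of 0.892 points in favour of Scid.adh.2C2. Neither share stood far from that of all genes. The median difference was 5.33 points for the members and -0.28 for all genes. The median fold of the 8 marked members was 32.8 in Scid.adh.2C2 against 27.1 over all marked genes, and 22.6 in the pre-B line against 21.7.

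The promoter peaks all had higher folds than the body peaks in Scid.adh.2C2, while the ranges overlapped in the pre-B line. There were 11 promoter peaks in Scid.adh.2C2, with folds from 22.6 to 40.2, and 10 of them overlapped a peak of the other list. There were 16 in the pre-B line, with folds from 7.93 to 30.6, of which 9 overlapped. The 22 body peaks of Scid.adh.2C2 had folds from 4.92 to 19.7 and the 19 of the pre-B line from 4.57 to 16.2, and 12 and 10 of them overlapped a peak of the other list. Summits of 22 and 18 body peaks lay in introns, and the remaining 1, in Elf4, lay in an exon. No shares over all peaks are given beside these overlap and intron counts, so they describe the members only.

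Body peaks were found in 7 members in Scid.adh.2C2, beside 6.68% of all genes, and in 5 members in the pre-B line, beside 10% of all genes. The members are long genes, with a median of 94622.5 bp against 17403 bp. Of the 8 members of at least 50 kb, 7 had a body peak in Scid.adh.2C2, beside 16.6% of all genes of that length, and 5 in the pre-B line, beside 25.0%. The nearest peaks on either side of the 2500 bp limit were, in Scid.adh.2C2, the 27.3-fold Elf2 peak at 1245 bp and a 9.28-fold Fli1 peak at 3645 bp. In the pre-B line they were the 10.6-fold Etv5 peak at 260 bp and a 14.1-fold Elf1 peak at 4580 bp.

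RefSeq windows from 250 bases before to 50 bases after the start were matched for 8 of the 10 members, 14 windows in all, and not for Ets1 and Fli1. The ratio of observed to expected CpGs had a median of 0.759 in the 14 windows and 0.384 in all 32851. Among all windows with a ratio of at least 0.6, 67.8% lay under a peak in Scid.adh.2C2 against 70.4% in the pre-B line, and below this ratio 9.99% and 11.7% did. Of the 10 member windows with such a ratio, 7 lay under a peak in Scid.adh.2C2 against 9 in the pre-B line. The exceptions in both lines were the Erg upstream start printed above, at 0.941, which had no peak, and the Elf1 inner start, at 0.202, which had one. At Elf4 the start marked in both lines had a ratio of 0.692 and the start marked in the pre-B line only had 0.530.

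The Ets motif CCGGAAGT, searched on both strands, was in 0 of the 14 member windows and in 3.89% of all windows. Its first 6 letters, CCGGAA, which overlap the longer motif, were in 1 member window, that of Gabpa, and in 14.9% of all windows. With a CpG ratio of at least 0.6, the motif was in 0 of 10 member windows and in 8.55% of all such windows. The 6 letters were in 1 of these 10 and in 29.8% of all such windows. These counts describe the letters in the windows only.

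Among 16 other Ets family genes found in the annotation, 6 were marked in Scid.adh.2C2 (37.5%) against 10 (62.5%) in the pre-B line, beside 45.5% and 48.2% of all protein-coding genes. The 6 marked in both lines were Etv3, Erf, Elk1, Elk3, Elk4 and Spi1. The 4 marked in the pre-B line only, beside 5.96% of all genes, were Etv1 (12.5-fold), Etv4 (25.1-fold), Elf3 (8.82-fold) and Spib (17.1-fold). None was marked in Scid.adh.2C2 only, beside 3.28% of all genes. Etv1 and Etv4 are the PEA3 relatives of Etv5, and Spib, the closest relative of Spi1, acts in B cells. Fev, Etv2, Elf5, Ehf, Spic and Spdef were marked in neither line.

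Spi1 encodes PU.1, a factor of myeloid and B cells whose gene is switched off as T cells commit. Its promoter peak covered 836 bp with 7.09-fold enrichment in Scid.adh.2C2, at percentile 0.762 of marked genes. In the pre-B line the marked length was 3653 bp and the fold 21.9, at percentile 51.6. Elk4, a partner of serum response factor, had 417 bp marked in Scid.adh.2C2 (15.3-fold) and 5344 bp (20.8-fold) in the pre-B line. Of the 6 genes marked in both lines, 5 had a percentile at least 10 points higher in the pre-B line, beside 37% of all genes marked in both. Etv3, at 55.5 in Scid.adh.2C2 against 28.6 in the pre-B line, had the opposite order. Of all genes marked in both, 36% were at least 10 points higher in Scid.adh.2C2.

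Gabpb1 and Gabpb2 encode the partner subunits that join GABPA to form GABP. Gabpb1 was marked with 28.4-fold enrichment in Scid.adh.2C2 against 17.7-fold in the pre-B line, at percentiles 56.9 and 25.9. Gabpb2 was marked with 31.0-fold and 13.9-fold, at percentiles 70.1 and 11.1. Both had a percentile at least 10 points higher in Scid.adh.2C2, as Gabpa had, beside 36% of all genes marked in both lines.

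**Figure D5:**
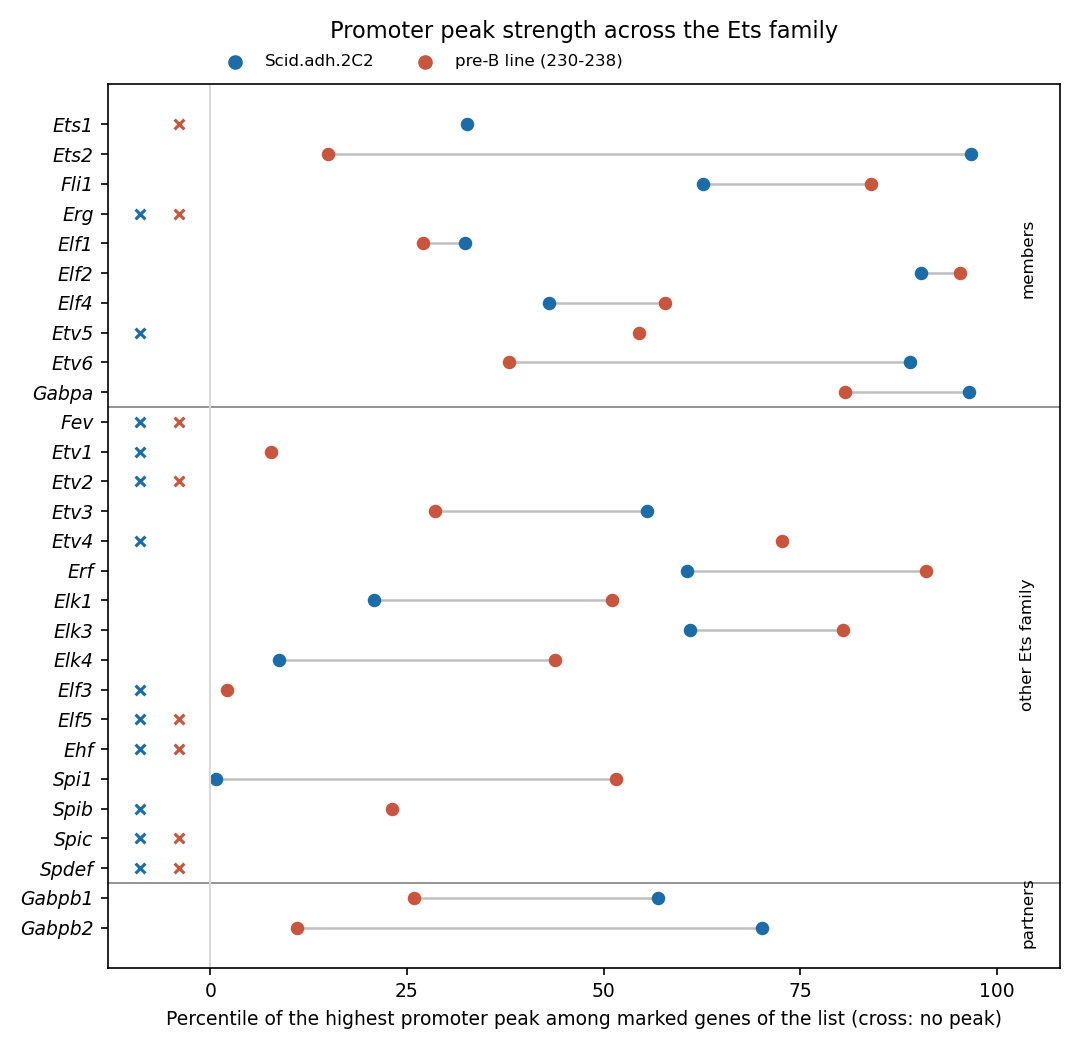
Percentile of the highest promoter peak among the marked genes of its list (x axis, percent) for the members, the other Ets family genes and the GABPA partners (rows), in Scid.adh.2C2 (blue) and the pre-B line (red), with a cross left of 0 where a gene had no promoter peak. Spi1 stands at 0.762 in blue and 51.6 in red, and Ets2 at 96.7 in blue and 14.9 in red.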

How the data were processed

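H3K4me3 ChIP-seq peaks of Scid.adh.2C2 and the pre-B line were analysed. Per the labels and the study's methods, the authors trimmed reads with Trim Galore 0.6.7, mapped them to mm10 (GRCm38) with Bowtie2 2.4.4 and called narrow peaks with MACS2 2.2.7.1 against input at a q-value of 0.05. Peaks reproducible between replicates at an irreproducible discovery rate (IDR) of 0.05 were kept, so regions near the thresholds are absent. The deposited values are an IDR score, a fold enrichment, and a p-value and q-value on the −log10 scale for each peak. The score was 1000, its maximum, for every promoter peak of the members. Among the lineage markers, the highest promoter peak scored 873 at Bcl11b in Scid.adh.2C2 and 639 at Cd79a in the pre-B line. Read depth is unknown, so a promoter without a peak is one at which no peak passed these thresholds, and a list of a more deeply sequenced line can hold more and longer peaks.

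TSSs came from GENCODE M21, and overlap was at least 1 bp. The percentile of a gene is the rank of its highest promoter peak among the marked protein-coding genes of its list. Marked length is the number of bases of the union of windows under peaks. The CpG ratio is the number of CpGs times the length, divided by the product of the numbers of C and G. All 10 members are named, the other Ets genes and GABPA partners by a list, and genes whose windows share a member's peak. The members and lists were chosen with earlier results of these data known. With 1 list per line no test was made. Alternatives were windows of 1000 and 5000 bp, peaks of at least 10-fold or with the highest score, equal list lengths, the summit rule, other TSS sets, ranks by −log10 q, merged peaks and the width of the highest peak. Peak assignment was tested on simulated data, with 100% of 2000 genes recovered. Python 3.11.15, numpy 2.4.6, pandas 2.3.3 and matplotlib 3.10.9 were used. The input libraries served as the background of peak calling, and other assays of the study were not analysed here.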

Additional observations from a re-analysis of the deposited data

How the results depend on the processing

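No paired analysis was possible because the replicates of each line are combined in 1 list, and leaving out a replicate could not be run for the same reason. With a window of 5000 bp, 1 member was marked in 1 line only, Ets1, since the 5.09-fold Etv5 peak then counted, and 2 were longer in the pre-B line, Elf4 and Etv5, with a Fli1 log2 length ratio of -0.51. Peaks of at least 10-fold left 7 body peaks in each list. Equal list lengths left 12 body peaks in the pre-B line, and merging peaks within 1000 bp left 13 in Scid.adh.2C2 against 12 in the pre-B line. With the most upstream TSS only, 1 member, Fli1, was longer and 1, Fli1, ranked higher in the pre-B line, Ets1 was marked in neither line, Elf4 in the pre-B line only, and Elf1 was higher in Scid.adh.2C2 by 24.0 points. Ranked by −log10 q, 1 member, Fli1, was higher in the pre-B line, the Elf4 difference turned to 0.892 points and that of Etv6 was 14.0 points. By the width of the highest peak the Fli1 log2 length ratio turned to 0.0011. The ratios of Elf1 (-0.62) and Elf2 (-0.68) then set peaks at different starts against each other. They therefore do not show a longer mark at either gene in the pre-B line. Of the counts under the alternatives, 67 stayed within 1.5 times the value reported and 9 did not. This tally compares numbers only, and the genes counted changed in some of the 67, such as those longer in the pre-B line at 5000 bp. The lists give no depth and no spread, so differences of a few percentile points or of presence near the calling threshold cannot be judged.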
